A study of Homo sapiens with 9 samples.

Results

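Ferroptosis is a form of cell death in which iron-dependent peroxidation of membrane lipids outruns the systems that remove lipid peroxides. A set of 10 genes named for suppressing or driving it was taken by symbol from the whole count table, and all 10 were found among 58299 listed genes and passed the filter on low counts. The suppressors that act through radical traps or removal of lipid peroxides were GPX4, AIFM2 (which encodes FSP1), DHODH and GCH1. The remaining genes of the set were ACSL4 and LPCAT3, which supply oxidizable lipids, NCOA4, CISD1 and VDAC2, which act on iron and at the mitochondrial outer membrane, and SAT1, a polyamine enzyme. The cells were AC16, a proliferating human line derived by fusing adult ventricular cardiomyocytes with transformed fibroblasts. There were 3 libraries from cells given 100 nM CDDO-Me for 72 h, 3 from cells given 100 nM CDDO-Me for 24 h, and 3 from cells given 0.1% DMSO for 72 h. Bardoxolone methyl, the other name of CDDO-Me, is a triterpenoid made by synthesis that modifies KEAP1 and so frees the transcription factor NRF2. By its title the series concerns NRF2 and doxorubicin, which was given in none of these libraries. There was no DMSO library of 24 h here, so treatment and time in culture cannot be told apart in the 24 h comparison. Nor can length of treatment and time in culture be told apart between CDDO-Me 72 h and CDDO-Me 24 h.

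GPX4 is a selenium-containing peroxidase that reduces lipid hydroperoxides with glutathione. AIFM2 regenerates coenzyme Q as a radical trap in membranes with NAD(P)H, DHODH does so in the inner mitochondrial membrane, and GCH1 starts the synthesis of tetrahydrobiopterin, another radical trap. ACSL4 and LPCAT3 load polyunsaturated fatty acids into phospholipids, and NCOA4 carries ferritin to lysosomes, where its iron is released. NRF2 is known to raise genes that hold an antioxidant response element, among them genes of glutathione supply and iron storage.

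AIFM2 is the gene whose level was higher at both times, so the start of its gene is shown here with the letters of that element searched on both strands. The window is the RefSeq promoter on GRCh38.p14, chr10:70132776-70133075, read 5′ to 3′ along the minus strand on which the gene lies. It runs from 250 bases before to 50 bases after the start, and capitals mark the element. The deposited table places the gene end at 70132934, upstream of the RefSeq start, so longer transcripts begin inside this window.
AIFM2 promoter: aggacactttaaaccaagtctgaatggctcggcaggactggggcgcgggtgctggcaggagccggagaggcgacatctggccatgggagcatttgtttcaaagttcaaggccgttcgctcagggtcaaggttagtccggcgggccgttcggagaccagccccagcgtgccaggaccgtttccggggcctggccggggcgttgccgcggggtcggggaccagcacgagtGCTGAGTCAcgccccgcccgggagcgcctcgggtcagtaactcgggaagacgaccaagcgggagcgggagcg
The capitals are the reverse complement of TGACTCAGC, searched as the full AP-1-like form of the element. They lie 22 to 14 bases before the RefSeq start, at chr10:70132839-70132847, and so within the gene as the deposited table places it. The core TGACNNNGC was present in 13.3% of all RefSeq promoter windows of this length (4687 of 35116), and TGACTCAGC, which contains the core, in 0.561% (197). Of the 10 genes, 9 had a window, in 13 windows in all, and GCH1 is named only. The core was found in AIFM2 and, as TGACAGTGC 23 to 31 bases after a start, in NCOA4, and the full form in AIFM2. That NCOA4 window lies inside the gene (chr10:46005088-46030714), and 0 of 7 GENCODE transcripts of NCOA4 held the bases after its start. The other NCOA4 window, where 1 of 7 did, had no match. A match is a description of letters and not a measured binding site.

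The libraries held 18801683 to 20704953 counts in the CDDO-Me 72 h group, 16898977 to 27910031 in the CDDO-Me 24 h group and 19382833 to 20570568 in the DMSO group. Levels are in CPM, read counts relative to the scaled library size, and 3 counts, the limit that a count of 0 allows, equal 0.107 to 0.178 CPM (counting error only). NQO1, a standard NRF2 target, had 3386, 3306 and 3353 CPM at CDDO-Me 72 h, 1686, 1783 and 2169 CPM at CDDO-Me 24 h, and 433, 420 and 495 CPM in DMSO. Every treated library was above every DMSO library, as for 15.5% of all tested genes at 72 h and 6.73% at 24 h. CDDO-Me 24 h replicate 3 lay apart from its group, with a biological coefficient of variation of 19.9 and 20.9% to replicates 2 and 1, against 6.38% between those. DMSO replicate 1 lay at 12.1 and 13.8% from the other two, which were 7.79% apart, and the CDDO-Me 72 h pairs were 2.73 to 3.31% apart. Nuclear-retained transcripts, read as a sign of RNA quality, differed among these libraries too. Their sum was 113 to 147 CPM at CDDO-Me 72 h, 295, 307 and 114 CPM at CDDO-Me 24 h (replicates 1, 2 and 3) and 276, 183 and 139 CPM in DMSO. Its part in the results was not tested. The labels call the cells cardiomyocytes, but 12 of 14 cardiac muscle markers never reached 1 CPM and 5, MYH6, MYH7, MYL2, NKX2-5 and RYR2, were at 0 throughout. GATA4 had means of 21.3, 21.3 and 25.3 CPM and TTN of 6.04, 6.84 and 6.15 CPM at CDDO-Me 72 h, CDDO-Me 24 h and DMSO. The sum of the 14 markers, most of it GATA4 and TTN, was 27.3 to 28.1 CPM at CDDO-Me 72 h, 27.2 to 29.9 CPM at CDDO-Me 24 h and 32.6 to 32.9 CPM in DMSO. All 8 fibroblast markers reached 1 CPM, with sums of 17244 to 17750 CPM at CDDO-Me 72 h, 12571 to 18986 CPM at CDDO-Me 24 h and 15057 to 16405 CPM in DMSO. Sums of epithelial markers were 128 to 137 CPM at CDDO-Me 72 h, 154 to 221 CPM at CDDO-Me 24 h and 225 to 269 CPM in DMSO, and those of 5 smooth muscle markers were 213 to 232, 180 to 269.8 and 263 to 434 CPM in that order. KRT18 held most of the epithelial sums, with means of 96.2, 142 and 193 CPM in the same order. EPCAM reached at most 0.621 CPM and CDH1 2.85 CPM in any library. Endothelial markers, mostly TEK (up to 14.1 CPM), summed to at most 15.6 CPM and white blood cell markers to at most 3.50 CPM in any library. The part of these cell type markers in the results was not tested. In bulk RNA, fewer cells of a type and less RNA per cell cannot be told apart.

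Of the 10 genes, AIFM2 rose at both times against DMSO, GPX4 rose at 72 h, and no gene fell past the threshold of an adjusted p of 0.05. This was 2 of 10 genes at 72 h, beside 6.02% of the 14965 genes tested, and 1 of 10 at 24 h, beside 2.15%. Between CDDO-Me 72 h and CDDO-Me 24 h it was 0 of 10, beside 1.02% of all genes (0.448% higher and 0.568% lower), by edgeR, by DESeq2 and by limma-voom, and 2 (GPX4 and SAT1) at an unadjusted p under 0.05, beside 13.2% of all genes. The median log2 fold change of the 10 was 0.12 at 72 h and 0.02 at 24 h against DMSO, where that of all genes was -0.00 and 0.01. Both comparisons with DMSO share the DMSO libraries. Throughout, adjusted p-values are those of edgeR's quasi-likelihood test over all tested genes, and values after ± are SE beside a log2 fold change and SD (n = 3) beside a level.

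**Figure D1:**
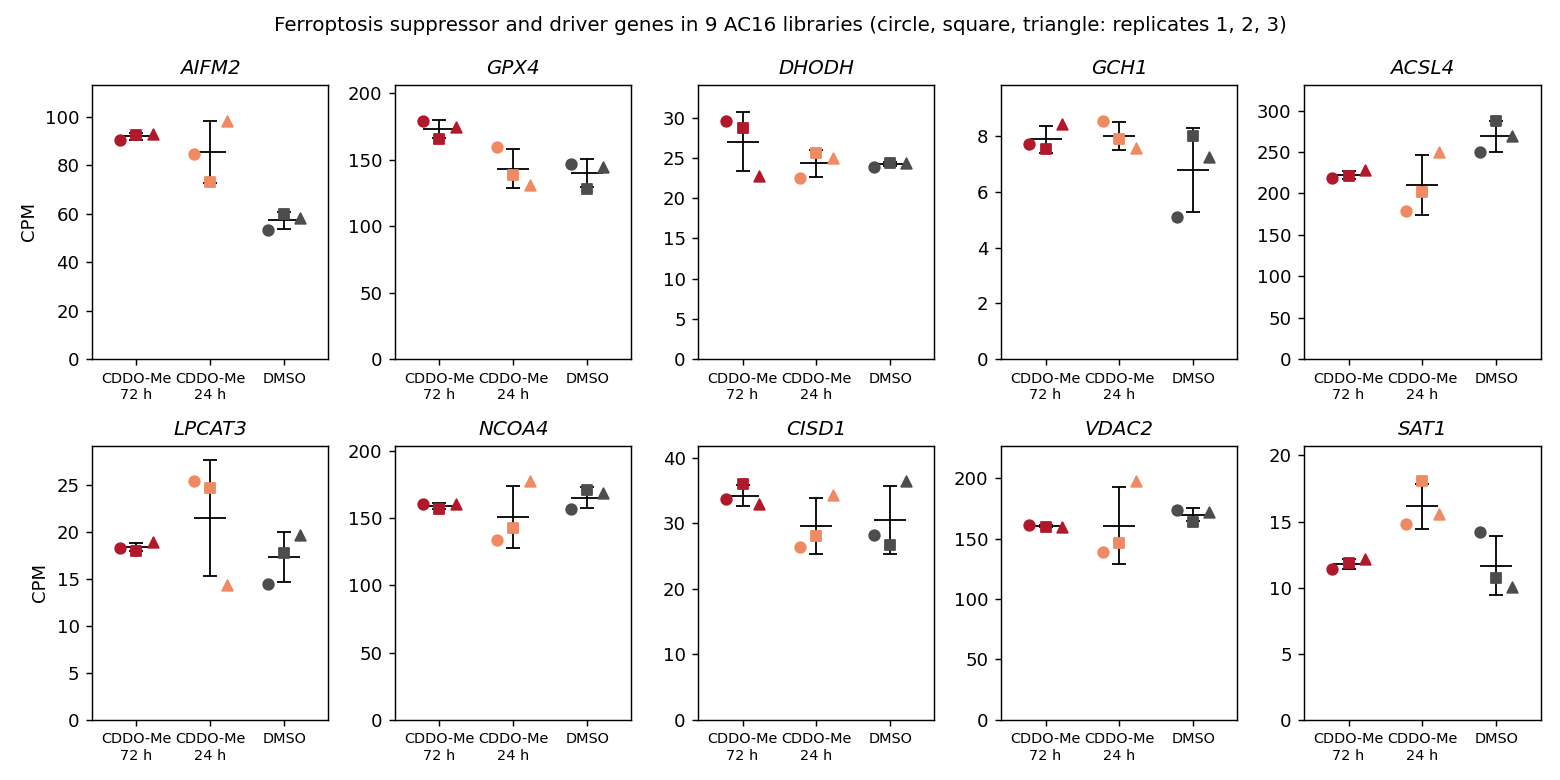
Level of each of the 10 genes in CPM (y axes start at 0) in CDDO-Me 72 h, CDDO-Me 24 h and DMSO libraries; each symbol is a library and bars are mean ± SD of 3. All AIFM2 symbols of both CDDO-Me groups lie above DMSO, all ACSL4 symbols below it, and the CDDO-Me 72 h symbols lie closest together in most genes.

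AIFM2 had 90.3, 92.3 and 93.1 CPM at CDDO-Me 72 h, 84.8, 72.9 and 98.4 CPM at CDDO-Me 24 h, and 53.3, 59.8 and 58.4 CPM in DMSO. Every CDDO-Me library was above every DMSO library, as for 15.5% of all tested genes at 72 h and 6.73% at 24 h, and the CDDO-Me groups overlapped each other. The level was 1.61-fold higher at CDDO-Me 72 h than in DMSO (log2 fold change 0.68 ± 0.10, 95% interval 0.47 to 0.90, adjusted p = 0.000714). At CDDO-Me 24 h it was 1.49-fold higher than in DMSO (0.58 ± 0.10, 0.37 to 0.79, adjusted p = 0.00626). CDDO-Me 72 h and CDDO-Me 24 h differed by 0.11 ± 0.10 (adjusted p = 0.698), an interval of -0.11 to 0.32. The call against DMSO held in 9 of 9 repeats that each left out 1 library, with a log2 fold change of 0.64 to 0.72 at 72 h and 0.46 to 0.67 at 24 h. Fitted with the CDDO-Me 24 h and DMSO libraries alone, the 24 h call was lost (adjusted p = 0.0517). The AIFM2 exons overlap those of MACROH2A2 on the other strand, which had 54 to 78 counts where AIFM2 had at least 1032, and the kit does not keep the strand.

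GPX4 had 179, 166 and 174 CPM at CDDO-Me 72 h, 160, 139 and 131 CPM at CDDO-Me 24 h, and 147, 128 and 145 CPM in DMSO. The CDDO-Me 72 h libraries were above all others, and the CDDO-Me 24 h libraries overlapped DMSO. Of all tested genes, 15.5% lay wholly above DMSO at CDDO-Me 72 h and 10.8% lay wholly higher at CDDO-Me 72 h than at CDDO-Me 24 h. GPX4 was 1.24-fold higher at CDDO-Me 72 h than in DMSO (0.31 ± 0.09, 0.12 to 0.49, adjusted p = 0.0496). This call lay at the threshold. It held in 2 of 9 repeats that left out a library (CDDO-Me 24 h replicate 1 or replicate 3) and was lost without CDDO-Me 24 h replicate 2, any CDDO-Me 72 h library or any DMSO library, with an adjusted p up to 0.213 and a log2 fold change of 0.25 to 0.35. At CDDO-Me 24 h the difference from DMSO was 0.03 ± 0.09 (-0.15 to 0.22, adjusted p = 0.915). CDDO-Me 72 h exceeded CDDO-Me 24 h by 0.27 ± 0.09, which did not pass (adjusted p = 0.176).

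DHODH, the mitochondrial enzyme of pyrimidine synthesis, had 29.7, 28.7 and 22.8 CPM at CDDO-Me 72 h, 22.5, 25.6 and 25.0 CPM at CDDO-Me 24 h, and 23.9, 24.4 and 24.4 CPM in DMSO. One CDDO-Me 72 h library was below all DMSO libraries and the others above them. The log2 fold change was 0.16 at 72 h (-0.08 to 0.40, adjusted p = 0.495) and 0.01 at 24 h (-0.23 to 0.25, adjusted p = 0.985). GCH1 had 7.70, 7.53 and 8.44 CPM at CDDO-Me 72 h, 8.56, 7.90 and 7.57 CPM at CDDO-Me 24 h, and 5.12, 8.02 and 7.26 CPM in DMSO. All groups overlapped, and DMSO replicate 1 was the lowest library. The log2 fold change of GCH1 was 0.21 at 72 h (-0.16 to 0.58, adjusted p = 0.56) and 0.23 at 24 h (-0.14 to 0.60, adjusted p = 0.643). All of these intervals include 0, and that of DHODH at 24 h is the one that ends below the 0.31 found for GPX4 at 72 h.

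ACSL4, which activates arachidonic and adrenic acid for membrane lipids, had 219, 221 and 228 CPM at CDDO-Me 72 h, 179, 201 and 249.6 CPM at CDDO-Me 24 h, and 250.4, 288 and 269 CPM in DMSO. Every CDDO-Me library was below every DMSO library, by less than 1 CPM in the closest case (CDDO-Me 24 h replicate 3 and DMSO replicate 1). Of all tested genes, 15.2% lay wholly below DMSO at 72 h and 6.74% at 24 h. The log2 fold change was -0.27 ± 0.10 at 72 h (-0.49 to -0.05) and -0.36 ± 0.10 at 24 h (-0.58 to -0.14), and neither passed (adjusted p = 0.149 and 0.106). ACSL4 passed at both times once CDDO-Me 24 h replicate 3 was left out, with -0.27 (adjusted p = 0.0089) at 72 h and -0.50 (adjusted p = 0.000281) at 24 h. ACSL4 shares exon bases with KCNE5 on its own strand, which had 5 to 24 counts.

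LPCAT3, an acyltransferase that places polyunsaturated chains in phospholipids, had 18.3, 17.99 and 18.9 CPM at CDDO-Me 72 h, 25.4, 24.7 and 14.4 CPM at CDDO-Me 24 h, and 14.4, 17.8 and 19.7 CPM in DMSO. The CDDO-Me 24 h group was split, with replicates 1 and 2 above all other libraries and replicate 3 the lowest of the 9. The log2 fold change was 0.09 at 72 h (adjusted p = 0.861) and 0.30 at 24 h (adjusted p = 0.558). Without CDDO-Me 24 h replicate 3, LPCAT3 was 0.53 higher at 24 h than in DMSO on the log2 scale (adjusted p = 0.00838) and 0.44 lower at CDDO-Me 72 h than at CDDO-Me 24 h (log2 fold change -0.44, adjusted p = 0.0236). Its exons overlap EMG1 on the other strand, which had 194 to 322 counts where LPCAT3 had at least 279, so its values are uncertain.

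NCOA4, the receptor for ferritin, had 161, 157 and 161 CPM at CDDO-Me 72 h, 133, 142 and 177 CPM at CDDO-Me 24 h, and 157, 171 and 169 CPM in DMSO. VDAC2, a channel of the mitochondrial outer membrane, had 161, 159.9 and 159.9 CPM at CDDO-Me 72 h, 139, 146 and 198 CPM at CDDO-Me 24 h, and 174, 164 and 172 CPM in DMSO. In both genes replicates 1 and 2 of CDDO-Me 24 h were below all DMSO libraries and replicate 3 above them. The log2 fold change of NCOA4 was -0.05 at 72 h (adjusted p = 0.82) and -0.13 at 24 h (adjusted p = 0.637), and that of VDAC2 was -0.09 (adjusted p = 0.743) and -0.08 (adjusted p = 0.824) at the same times. Leaving out CDDO-Me 24 h replicate 3 takes away the library of its group that lay above DMSO. NCOA4 (-0.26, adjusted p = 0.0187) and VDAC2 (-0.26, adjusted p = 0.0174) then passed as lower at 24 h. VDAC2 at CDDO-Me 72 h lay wholly below DMSO, as did 15.2% of all tested genes, and varied by 0.468% (SD over mean), the smallest spread of any of the 10 genes in any group. CISD1 (mitoNEET), an iron-sulphur protein that limits mitochondrial iron uptake, had 33.8, 36.0 and 32.9 CPM at CDDO-Me 72 h, 26.4, 28.01 and 34.4 CPM at CDDO-Me 24 h, and 28.2, 26.8 and 36.4 CPM in DMSO. The CISD1 groups overlapped each other in both comparisons with DMSO (0.17, adjusted p = 0.534 at 72 h and -0.04, adjusted p = 0.94 at 24 h). Processed copies of VDAC2 had up to 48 counts and those of NCOA4 up to 3.

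SAT1, which acetylates spermidine and spermine, had 11.4, 11.8 and 12.2 CPM at CDDO-Me 72 h, 14.8, 18.03 and 15.6 CPM at CDDO-Me 24 h, and 14.2, 10.7 and 10.1 CPM in DMSO. All CDDO-Me 24 h libraries were above all others, by less than 1 CPM over DMSO replicate 1. Of all tested genes, 6.73% lay wholly above DMSO at 24 h and 10.2% lay wholly lower at CDDO-Me 72 h than at CDDO-Me 24 h. The log2 fold change was 0.02 at 72 h against DMSO (adjusted p = 0.97), 0.47 ± 0.14 at 24 h against DMSO (0.16 to 0.78, adjusted p = 0.132), and -0.45 ± 0.14 at 72 h against 24 h (-0.76 to -0.15, adjusted p = 0.181). The 24 h difference passed without CDDO-Me 24 h replicate 3 (0.49, adjusted p = 0.0387) and without DMSO replicate 1 (0.63, adjusted p = 0.03). The difference between the CDDO-Me groups passed without CDDO-Me 24 h replicate 3 (-0.48, adjusted p = 0.0431).

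**Figure D2:**
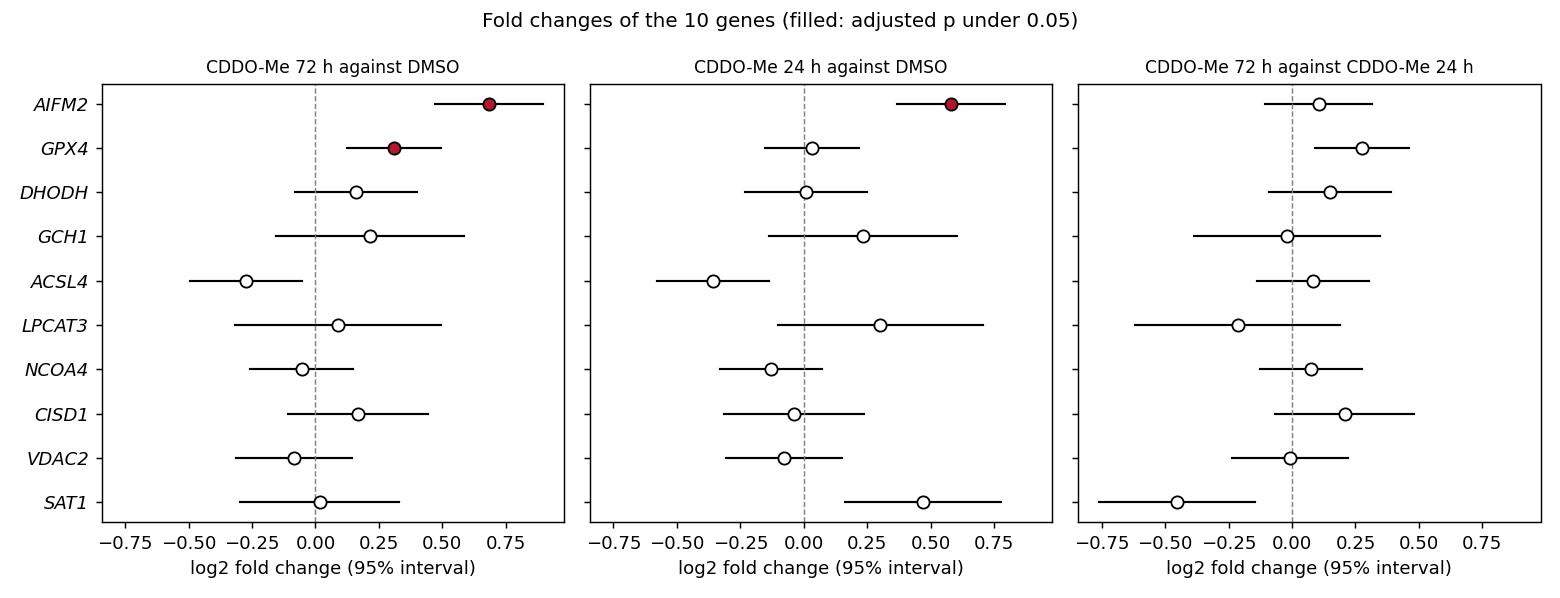
Log2 fold change of each gene (point) with its 95% interval (line) for CDDO-Me 72 h against DMSO, CDDO-Me 24 h against DMSO and CDDO-Me 72 h against CDDO-Me 24 h; filled points have an adjusted p under 0.05. AIFM2 is filled in both comparisons with DMSO (0.68 and 0.58), GPX4 at 72 h (0.31), and no point is filled between the CDDO-Me groups.

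**Figure D3:**
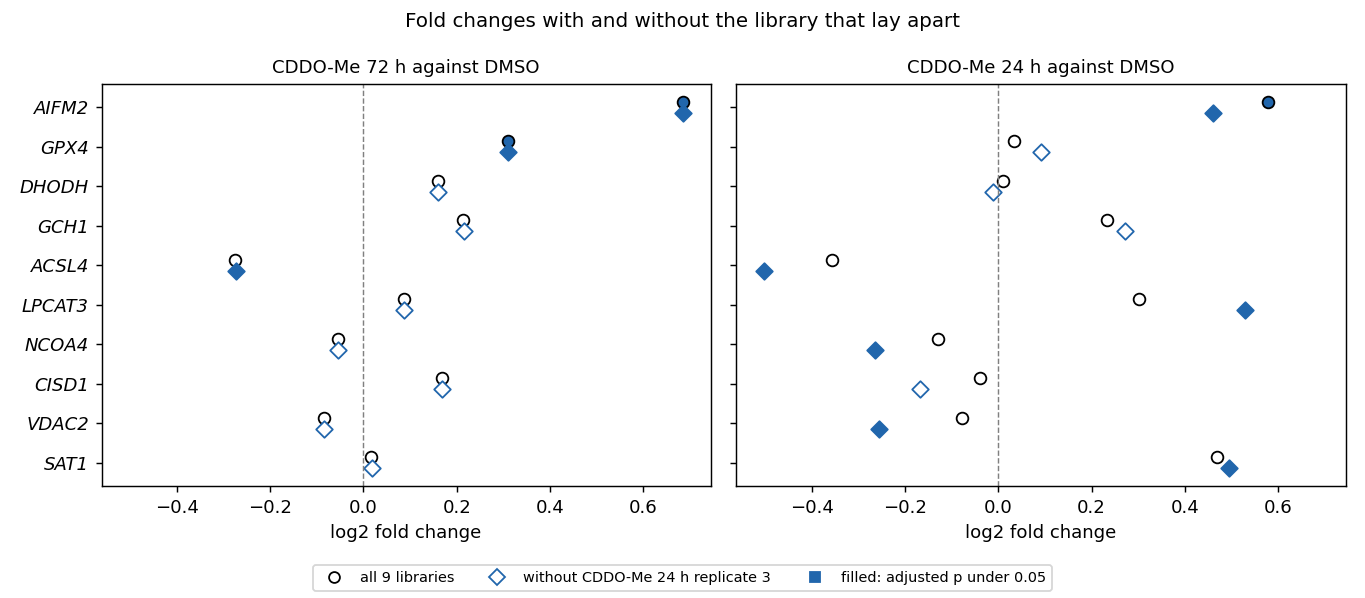
Log2 fold change of each gene against DMSO, at CDDO-Me 72 h and at CDDO-Me 24 h, with all 9 libraries (circles) and without CDDO-Me 24 h replicate 3 (diamonds); filled symbols have an adjusted p under 0.05. At 24 h the diamonds of ACSL4, LPCAT3, NCOA4, VDAC2 and SAT1 are filled where their circles are open; the 72 h values barely move, and ACSL4 becomes filled.

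The number of these genes called at 24 h depended on that library, while the call of AIFM2 did not. The repeat without it was singled out because the library lay apart, and leaves replicates 1 and 2 at CDDO-Me 24 h. Adjusted p-values of that repeat, here and for the lists below, thus follow a choice made from these data and are a description. With all libraries 1 gene was called at 24 h, and without CDDO-Me 24 h replicate 3 it was 6, with AIFM2, LPCAT3 and SAT1 higher and ACSL4, NCOA4 and VDAC2 lower, while calls over all genes went up as well, to 10.8%. At 72 h it was 3 (AIFM2, GPX4 and ACSL4), beside 12.9% of all genes. Replicate 3 was the highest of its group for AIFM2, ACSL4, NCOA4, CISD1 and VDAC2 and the lowest for GPX4, GCH1 and LPCAT3. Its ratio to the mean of replicates 1 and 2 ran from 0.574 in LPCAT3 to 1.39 in VDAC2. The median spread of the 10 genes (SD over mean) was 2.93% at CDDO-Me 72 h, 14.6% at CDDO-Me 24 h and 7.27% in DMSO.

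Per kilobase of exon, the levels of the 10 genes ran over a wide range. In DMSO the means in order were 69.2 CPM per kb for GPX4, 60.2 for VDAC2, 41.96 for ACSL4, 40.5 for NCOA4, 11.1 for AIFM2, 10.7 for CISD1, 4.67 for SAT1, 3.66 for LPCAT3, 3.50 for DHODH and 2.30 for GCH1. Neighbours whose DMSO libraries overlapped were ACSL4 and NCOA4, AIFM2 and CISD1, SAT1 and LPCAT3, and LPCAT3 and DHODH. At CDDO-Me 72 h GPX4 had 85.8 ± 3.46 CPM per kb and AIFM2 17.9 ± 0.283, and all neighbours were apart except DHODH and LPCAT3. NCOA4 (39.0) then stood above ACSL4 (34.7), without overlap, where the order of their DMSO means was the reverse. AIFM2 and CISD1 (11.99), which overlapped in DMSO, were apart at CDDO-Me 72 h. At CDDO-Me 24 h the levels overlapped for GPX4 and VDAC2, NCOA4 and ACSL4, and LPCAT3 and DHODH.

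**Figure D4:**
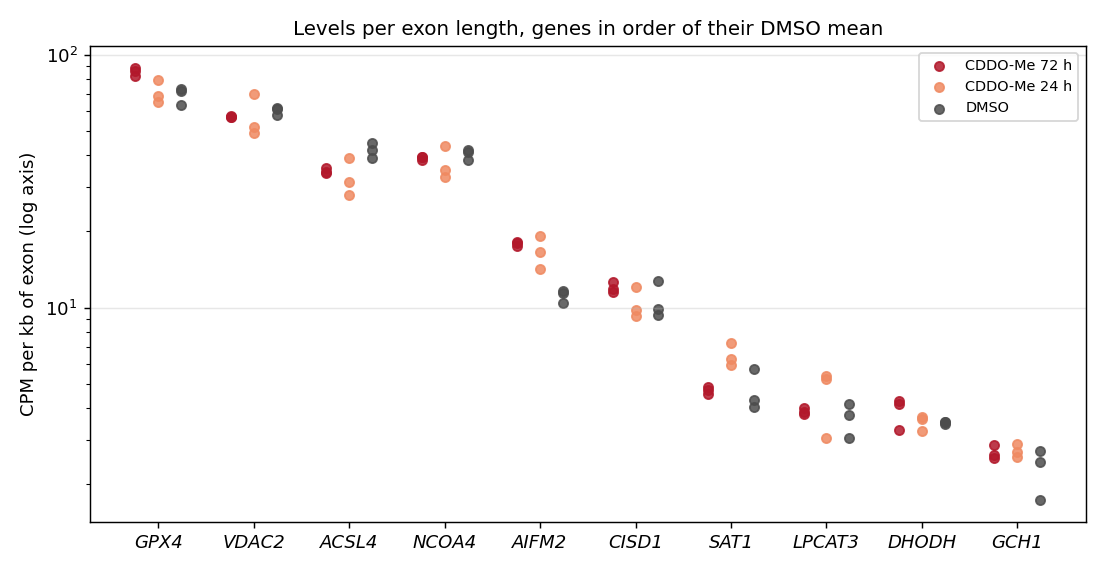
Level of each gene per kilobase of exon (log axis) in each library, with CDDO-Me 72 h, CDDO-Me 24 h and DMSO from left to right and genes ordered by their DMSO mean. GPX4 (69.2 CPM per kb in DMSO) stands at the top and GCH1 (2.30) at the bottom, and AIFM2 separates from CISD1 in the CDDO-Me groups.

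Among 9749 genes with a mean log2 CPM of at least 3, likeness to AIFM2 and to GPX4 was measured as the root mean square difference of centred log2 CPM over the 9 libraries. Closest to AIFM2 were SPSB1 (0.0791), PRKCD (0.0976) and TUBA4A (0.0996). SPSB1 was higher by 0.55 at 72 h (adjusted p = 0.00664) and by 0.59 at 24 h (adjusted p = 0.00845) on the log2 scale against DMSO. TUBA4A was higher by 0.80 at 72 h (adjusted p = 0.000379) and by 0.59 at 24 h (adjusted p = 0.00955), and PRKCD by 0.49 at 72 h (adjusted p = 0.0274), while its 24 h value of 0.48 did not pass (adjusted p = 0.0586). Among the closest to GPX4 were AVPI1 (0.0535) and KLHL12 (0.0611). Neither passed in any comparison, with log2 fold changes of 0.33 for AVPI1 (adjusted p = 0.101) and 0.24 for KLHL12 (adjusted p = 0.139) at 72 h against DMSO. These genes were chosen for their pattern, so their values are a description.

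The other genes of the pathways around these 10 came from 11 lists with 96 genes, of which 91 were tested. Against DMSO, 14 rose and 3 fell at 72 h, and 8 rose and 1 fell at 24 h, with a median log2 fold change of 0.10 and 0.09. Of all tested genes, 2.89% rose and 3.13% fell at 72 h, and 0.969% rose and 1.18% fell at 24 h. Groups lay wholly above DMSO in 15.5% of all tested genes at 72 h and in 6.73% at 24 h. CDDO-Me 72 h lay wholly above CDDO-Me 24 h in 10.8% and wholly below it in 10.2%. These shares stand beside each list gene below whose groups did not overlap. Leaving out CDDO-Me 24 h replicate 3, 22 rose and 7 fell at 72 h, and 19 rose and 7 fell at 24 h. In that repeat 12.9% of all genes were called at 72 h and 10.8% at 24 h. These higher shares also stand beside the counts of single lists given below for that repeat. The 72 h and 24 h comparisons share their DMSO libraries.

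With all 9 libraries, no listed partner of AIFM2, DHODH or GCH1 passed against DMSO. Without CDDO-Me 24 h replicate 3, COQ8B, a kinase-like protein of coenzyme Q synthesis, passed at 24 h (0.41, adjusted p = 0.028) and PTS, an enzyme of tetrahydrobiopterin synthesis, at 72 h (0.49, adjusted p = 0.014). None of the 14 genes of coenzyme Q synthesis and transport was called at either time, with a median log2 fold change of 0.14 at 72 h and 0.11 at 24 h, and the most expressed, STARD7, a lipid carrier that moves coenzyme Q, was at -0.10 (adjusted p = 0.668) and -0.06 (adjusted p = 0.853). Among 5 tested genes of tetrahydrobiopterin synthesis and recycling none was called at either time, with a median log2 fold change of 0.15 at 72 h and 0.01 at 24 h. CAD and UMPS, the other enzymes of pyrimidine synthesis, were not called, with CAD at -0.05 (adjusted p = 0.794) and 0.00 (adjusted p = 0.988) at those times.

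Glutathione, the substrate of GPX4, had the list with the largest share called. Of 7 genes of cystine and glutathione supply, 4 rose at 72 h and 2 at 24 h against DMSO, and none fell. SLC7A11, the cystine carrier of system xc-, had 296, 311 and 292 CPM at CDDO-Me 72 h, 127, 158 and 391 CPM at CDDO-Me 24 h, and 41.0, 42.7 and 35.7 CPM in DMSO. Replicate 3 of CDDO-Me 24 h was the highest library of all, and every CDDO-Me library was above DMSO. SLC7A11 was higher by 2.91 ± 0.43 at 72 h (adjusted p = 0.0105) and by 2.51 ± 0.43 at 24 h (adjusted p = 0.0353) on the log2 scale. Without CDDO-Me 24 h replicate 3 the 24 h value was 1.84 (adjusted p = 2.83e-10), and 6 of the 7 genes rose at 72 h and 5 at 24 h. The genes added at 24 h were GCLM (1.02, adjusted p = 2.1e-08), GSR (0.67, adjusted p = 3.86e-06) and the catalytic subunit GCLC (0.34, adjusted p = 0.0196). At 72 h GCLM, the modifier subunit of glutamate-cysteine ligase, rose by 1.95 (adjusted p = 0.0139), glutathione synthetase GSS by 0.32 (adjusted p = 0.0262) and glutathione reductase GSR by 1.32 (adjusted p = 0.0328). CHAC1, which degrades glutathione, rose at 24 h by 0.77 (adjusted p = 0.0309).

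Of 7 genes of selenocysteine incorporation, which GPX4 protein needs, LRP8 was called. This receptor takes up selenoprotein P, and it had 80.4, 79.2 and 80.0 CPM at CDDO-Me 72 h, 98.2, 98.4 and 107 CPM at CDDO-Me 24 h, and 69.1, 48.9 and 51.0 CPM in DMSO. The 3 groups did not overlap, with CDDO-Me 24 h the highest. LRP8 rose by 0.50 ± 0.11 at 72 h (adjusted p = 0.0134) and by 0.85 ± 0.11 at 24 h (adjusted p = 0.000725), and the difference of CDDO-Me 72 h from CDDO-Me 24 h, -0.34 ± 0.11, did not pass (adjusted p = 0.182).

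Of 16 tested genes of polyunsaturated lipid synthesis and oxidation, 1 rose and 2 fell at 72 h, and 2 rose and 1 fell at 24 h. POR, the cytochrome P450 reductase that can feed lipid peroxidation, had 106, 106 and 109 CPM at CDDO-Me 72 h, 91.2, 91.1 and 95.2 CPM at CDDO-Me 24 h, and 70.7, 64.7 and 61.7 CPM in DMSO. Its groups did not overlap, and it rose by 0.71 ± 0.07 at 72 h (adjusted p = 5.31e-05) and by 0.49 ± 0.07 at 24 h (adjusted p = 0.00245). MBOAT2, an acyltransferase that favours monounsaturated chains, fell by 0.32 at 72 h (adjusted p = 0.0258) and by 0.35 at 24 h (adjusted p = 0.0298). The elongase ELOVL5 fell by 0.32 at 72 h (adjusted p = 0.0258), and the desaturase FADS1 rose by 0.52 at 24 h (adjusted p = 0.0169). The genes called in this list moved in both directions. SCD, the desaturase that makes monounsaturated fatty acids, had 336, 331 and 330.0 CPM at CDDO-Me 72 h, 1008, 1037 and 331 CPM at CDDO-Me 24 h, and 560.4, 609 and 572 CPM in DMSO. Replicate 3 of CDDO-Me 24 h lay among the CDDO-Me 72 h libraries, below DMSO, and replicates 1 and 2 lay above DMSO. SCD did not pass with all libraries, at -0.80 for 72 h against DMSO (adjusted p = 0.331), 0.45 for 24 h against DMSO (adjusted p = 0.712) and -1.25 for 72 h against 24 h (adjusted p = 0.247). Without that replicate it passed in each comparison, at -0.80 (adjusted p = 8.29e-09), 0.82 (adjusted p = 7.66e-08) and -1.62 (adjusted p = 7.09e-12) in that order. FADS2 (0.78, adjusted p = 2.35e-07), ACSL3 (0.32, adjusted p = 0.00987) and PLA2G6 (0.80, adjusted p = 0.0225) also passed at 24 h in that repeat, so the list had 3 higher and 3 lower at 72 h and 6 higher and 1 lower at 24 h.

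Of 16 genes of iron uptake, storage, export and control, 5 rose at 72 h and 3 at 24 h, and none fell. Leaving out CDDO-Me 24 h replicate 3, 5 rose and 1 (STEAP3) fell at 72 h, and 5 rose and 1 (IREB2) fell at 24 h. FTL, the light chain of ferritin that NCOA4 delivers, had 8289, 8479 and 8276 CPM at CDDO-Me 72 h, 3668, 3558 and 5420 CPM at CDDO-Me 24 h, and 1600.1, 1680 and 1887 CPM in DMSO. The groups were fully apart, with the highest at CDDO-Me 72 h. FTL rose by 2.28 ± 0.14 at 72 h (adjusted p = 5.54e-07) and by 1.29 ± 0.14 at 24 h (adjusted p = 0.000162), and was the one gene of the lists called between CDDO-Me 72 h and CDDO-Me 24 h (0.99 ± 0.14, adjusted p = 0.00319). With CDDO-Me 24 h replicate 3 left out, 18 genes of the lists were higher and 10 lower at CDDO-Me 72 h than at CDDO-Me 24 h, beside 12% of all genes called. The heavy chain FTH1 had 2572, 2691 and 2601 CPM at CDDO-Me 72 h, 1265, 1209.8 and 2273 CPM at CDDO-Me 24 h, and 547, 577 and 552 CPM in DMSO. FTH1 rose by 2.23 (adjusted p = 0.000257) at 72 h and by 1.502 (adjusted p = 0.00628) at 24 h, and its CDDO-Me 24 h replicate 3 lay nearer to the 72 h libraries than to replicates 1 and 2. NCOA4 itself did not pass at either time. HMOX1, which frees iron from haem, had 822, 747 and 880 CPM at CDDO-Me 72 h, 146, 146 and 645 CPM at CDDO-Me 24 h, and 22.1, 23.6 and 25.8 CPM in DMSO. It rose by 5.10 at 72 h (adjusted p = 0.0106) and was not called at 24 h (3.71, adjusted p = 0.0557), where replicate 3 was far above replicates 1 and 2. Without replicate 3, HMOX1 rose at 24 h by 2.61 (adjusted p = 3.44e-13). The transferrin receptor TFRC rose by 0.38 at 72 h (adjusted p = 0.0143) and by 0.36 at 24 h (adjusted p = 0.0374), and the iron exporter SLC40A1 by 1.05 at 72 h (adjusted p = 0.00761).

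**Figure D5:**
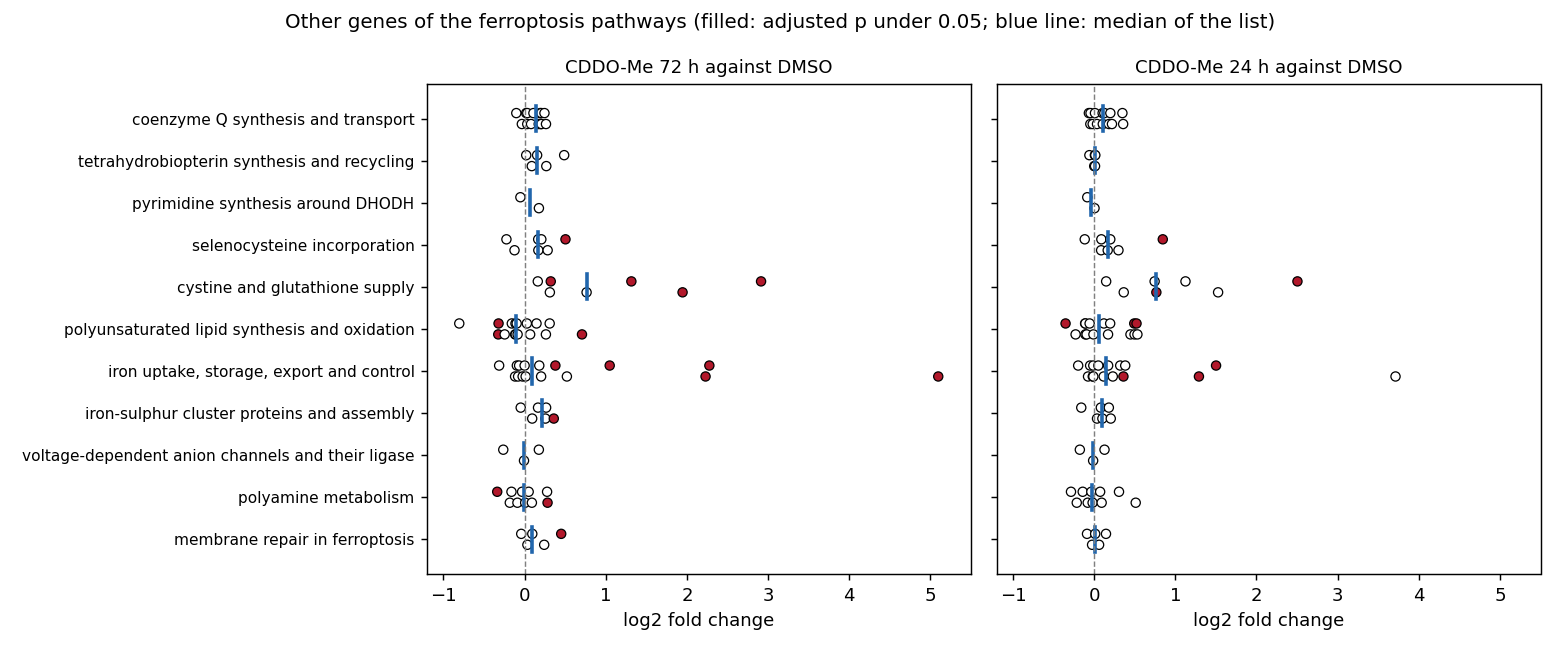
Log2 fold change of each other gene (circle) in the 11 lists, for CDDO-Me 72 h against DMSO and CDDO-Me 24 h against DMSO; filled circles have an adjusted p under 0.05 and the blue line is the median of the list. Filled circles far to the right are in iron handling (HMOX1, FTL, FTH1 at 72 h) and in cystine and glutathione supply (SLC7A11), and the lists of coenzyme Q, tetrahydrobiopterin, pyrimidine and anion channel genes have none.

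The calls of the remaining lists stand beside 6.02% of all tested genes at 72 h and 2.15% at 24 h with all libraries. Of 6 iron-sulphur cluster genes, which include relatives of CISD1, CISD3 rose at 72 h by 0.36 (adjusted p = 0.0409), and none passed at 24 h, where the most expressed, the scaffold ISCU, was at 0.20 (adjusted p = 0.286). ISCU passed at 72 h without CDDO-Me 24 h replicate 3 (0.26, adjusted p = 0.0288), as did SEPHS2 of the selenocysteine list (0.29, adjusted p = 0.0165). None of 3 genes listed around the channels of VDAC2 passed with all libraries, the most expressed being VDAC1 (-0.26 at 72 h, adjusted p = 0.0569, and -0.18 at 24 h, adjusted p = 0.334). VDAC1 fell at 72 h (-0.26, adjusted p = 0.00548) and at 24 h (-0.24, adjusted p = 0.0227) without CDDO-Me 24 h replicate 3. In polyamine metabolism around SAT1, spermidine synthase SRM fell by 0.34 (adjusted p = 0.0352) and the antizyme OAZ1 rose by 0.28 (adjusted p = 0.0287) at 72 h, out of 10 genes, and none was called at 24 h (OAZ1 0.09, adjusted p = 0.656). Without CDDO-Me 24 h replicate 3, SAT2 rose at 24 h (0.39, adjusted p = 0.0159), and ODC1 (-0.30, adjusted p = 0.00655), SRM (-0.35, adjusted p = 0.0101), SMS (-0.35, adjusted p = 0.00139) and AZIN1 (-0.32, adjusted p = 0.00638) fell. At 72 h it was then 2 genes higher (SAT2 and OAZ1) and 2 lower (SRM and SMS). CHMP2A, a subunit of the ESCRT-III complex that repairs membranes, rose by 0.45 at 72 h (adjusted p = 0.00397), 1 of 5 genes, and none of the 5 at 24 h (CHMP4B 0.01, adjusted p = 0.97). The calls of LRP8, POR, FTH1 and FTL at 24 h, and of SLC7A11, POR, SLC40A1, FTH1, FTL, HMOX1 and CHMP2A at 72 h, held in 9 of 9 repeats without 1 library. The other calls named were lost in at least 4 of 9. At 72 h each of them was lost without any CDDO-Me 72 h library, with the highest adjusted p in CISD3 (0.232, also lost without any DMSO library or CDDO-Me 24 h replicate 2). Beside the CDDO-Me 72 h libraries, LRP8 was lost without DMSO replicate 2 or 3, GCLM without DMSO replicate 1, GSS and OAZ1 without DMSO replicate 2, MBOAT2, TFRC and SRM without DMSO replicate 1 or 2, and GSR and ELOVL5 without any DMSO library. At 24 h SLC7A11 was lost without any DMSO or CDDO-Me 72 h library (adjusted p up to 0.125), and CHAC1 without any DMSO library, CDDO-Me 24 h replicate 1 or 2, or CDDO-Me 72 h replicate 2 or 3 (up to 0.14). FADS1 was lost without CDDO-Me 24 h replicate 1 or 2 or DMSO replicate 2 or 3 (up to 0.0896). MBOAT2 and TFRC were lost at 24 h without any CDDO-Me 72 h library, DMSO replicate 1 or 2, or a CDDO-Me 24 h library (replicate 1 for MBOAT2, up to 0.118, and replicate 2 for TFRC, up to 0.147).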

How the data were processed

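Polyadenylated RNA of AC16 cells was sequenced in 9 libraries, 3 groups of 3, made with an unstranded TruSeq v2 kit per the labels. The labels gave each library its group and replicate number. They leave unsaid if replicates came from separate cultures, and p-values then measure only the spread between these samples, possibly technical. Some titles write CDDO, but the treatment label says CDDO-Me, which was used for all treated cells. The authors deposited whole-number read counts per Ensembl gene, without normalization. Tools and builds named in the submitters' processing notes are STAR, SAMtools, Subread, featureCounts, hg38 and GRCh38. Annotation release and strand settings: not given in the sources used here. With no strand kept, overlapping genes share reads, and a near-identical copy may take some of a gene's reads.

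Counts were tested with edgeR 4.0.16 in R 4.3.3 (quasi-likelihood, robust, TMM, filterByExpr) in 1 fit of 9 libraries and 3 group means, which kept 14965 genes. Adjustment was by the method of Benjamini and Hochberg across these genes, with a threshold of 0.05. The SE is the absolute log2 fold change divided by the square root of F. The test was run on simulated data drawn with the same spread per gene in all groups. Those data lack the unequal spreads of the groups here, so they cannot check the test in that respect. Of 58299 IDs, 57717 had a symbol. Replicates were not duplicates: the smallest chi-square per degree of freedom between replicates of a group was 2.06.

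The 10 genes and the pathway lists were chosen with earlier results of these data known. Named were the 10 genes, NQO1, up to 3 genes per list and comparison with the smallest adjusted p or, with none called, the most expressed, and the 3 genes nearest in pattern to AIFM2 and GPX4. HMOX1, GSR and TFRC at 72 h, and the genes given only for passing without CDDO-Me 24 h replicate 3, are outside this rule and were added after their values were seen. A few genes that the rule names are not reported here. Alternatives were RLE size factors, no or a stricter filter (1 CPM), DESeq2 1.42.0, limma-voom (limma 3.58.1) without and with sample weights, a replicate block, only the 2 groups compared, and leaving out libraries.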

Additional observations from a re-analysis of the deposited data

Results flagged for a closer look

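Among the 10 genes and their lists, FTL and the control NQO1 differed in level by the direct test of CDDO-Me 72 h against CDDO-Me 24 h. The CDDO-Me 72 h level exceeded the CDDO-Me 24 h level by 0.99 for FTL (adjusted p = 0.00319) and by 0.83 for NQO1 (adjusted p = 0.000992) on the log2 scale. These adjusted p-values are from edgeR's quasi-likelihood test. All CDDO-Me 72 h libraries were above all CDDO-Me 24 h libraries, as for 10.8% of all tested genes. With DMSO libraries of 72 h only, length of treatment and time in culture cannot be told apart here. No such difference was called for the 10 ferroptosis genes.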

How the results depend on the processing

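Among repeats of the log2 fold changes of the 10 genes under other settings, 469 kept direction and side of the threshold, 38 newly passed, 9 no longer passed and 24 changed sign. For CDDO-Me 24 h against DMSO, the count of 10 genes called was 1. It was 2 without a filter and with DESeq2 (ACSL4 added), 5 with sample weights, 0 with only the 2 groups compared and 6 without DMSO replicate 1 and CDDO-Me 24 h replicate 3, and 1 to 6 leaving out 1 library. For CDDO-Me 72 h against DMSO it was 2, and 1 with limma-voom, which lost GPX4 (adjusted p = 0.0592), 3 (ACSL4 added) with sample weights, with only the 2 groups and without those 2 libraries, and 1 to 3 leaving out 1 library. For CDDO-Me 72 h against CDDO-Me 24 h it was 0, and 7 with sample weights, 8 without those 2 libraries, and 0 to 2 leaving out 1. Over all genes, the 24 h count was 321, and 662 without a filter, 546 with DESeq2, 1656 with sample weights, 100 with only the 2 groups, 3464 without those 2 libraries and 134 to 1657 leaving out 1. The 72 h count was 901, and 2593, 1776 and 2724 with sample weights, only the 2 groups and without those 2 libraries, and 401 to 1972 leaving out 1. Between the CDDO-Me groups it was 152, and 507 without a filter, 388 with DESeq2, 2918 with sample weights, 3471 without those 2 libraries and 32 to 1843 leaving out 1. The cause of these changes was not tested.

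Libraries of different groups with the same replicate number had correlations of -0.03 to 0.08, and those with different numbers -0.11 to 0.04. Of the 9 libraries, 7 correlated best with their own number, a hint from the data only. Whether replicate numbers pair the libraries was not tested. With a replicate block, 2 of the 10 genes were called at 24 h against DMSO (ACSL4 added), 2 at 72 h and 0 between the CDDO-Me groups, and 358, 963 and 219 of all genes.

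Signs that changed belonged to values near 0 with all 9 libraries. Without DMSO replicate 1 and CDDO-Me 24 h replicate 3, DHODH at 24 h was -0.0197 and LPCAT3 at 72 h -0.0312. VDAC2 at CDDO-Me 72 h against CDDO-Me 24 h was 0.0074 without a filter, 0.0080 with limma-voom, 0.14 with sample weights, 0.0061 with the replicate block and 0.17 without those 2 libraries. In the last of these repeats VDAC2 passed as higher, and that repeat is counted above as a change of sign. Leaving out 1 library, the log2 fold change at 24 h against DMSO ran from -0.0500 to 0.0919 for GPX4, -0.0342 to 0.0629 for DHODH, -0.17 to 0.11 for CISD1 and -0.26 to 0.0155 for VDAC2. At 72 h against DMSO it ran from -0.0267 to 0.19 for LPCAT3 and -0.0795 to 0.18 for SAT1. Between the CDDO-Me groups it ran from -0.0680 to 0.0288 for GCH1, -0.0206 to 0.23 for ACSL4, -0.0080 to 0.21 for NCOA4 and -0.10 to 0.17 for VDAC2. GCH1, with a lowest count of 99, has the least depth of the 10 genes.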
